A study of Oryctolagus cuniculus with 4 samples.

Results

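Mural cells wrap the endothelial tube of blood vessels: pericytes lie along capillaries, and smooth muscle cells form the contractile coat of arteries and veins. Endothelial cells release PDGF-B, which recruits mural cells through the receptor PDGFRB, and Notch ligands on the endothelium act on NOTCH3 in the mural cell. Contraction follows when myosin light chain kinase, the product of MYLK, phosphorylates the light chains of smooth muscle myosin, whose heavy chain is encoded by MYH11 and which pulls on the smooth muscle actin of ACTA2. Several of these genes are not restricted to vessels: fibroblasts also express PDGFRB and MYLK, myofibroblasts express ACTA2, and endothelial cells express MCAM.

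The genes described here are PDGFRB and 8 other markers of pericytes and smooth muscle cells, taken by symbol from the deposited table. Of these 9 symbols, 7 had an entry among the 20294 genes of the table, each with 1 transcript: PDGFRB, ACTA2, RGS5, MYLK, MCAM, MYH11 and NOTCH3. CNN1 and TAGLN had no entry under those symbols and are not analysed here, which says nothing about their expression. The samples were semitendinosus tendons from 4 New Zealand White rabbits, all female and 193 days old, with 1 tendon per animal and no treatment or comparison group. This is a hamstring tendon used as a graft in knee ligament reconstruction. Muscle was scraped from the tendon surface before freezing, and polyadenylated RNA of the ground tissue was sequenced. The 4 tendons form 1 group, so the values describe levels and the spread between animals.

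Total estimated counts ran from 19759696 in tendon 1 to 30646052 in tendon 2, and tendon 1 was the shallowest library. The 7 genes had between 675 and 14762 estimated counts per tendon, so the counting error of the lowest value of each gene was between 0.978% and 3.85%. Levels are given as TPM, an abundance that accounts for transcript length and has a common total in every tendon. Each of the 7 passed a minimum mean of 10 CPM, the unit that scales counts to a common library size and ignores length. Whole tissue was ground, so fewer cells of a type and less RNA per cell cannot be told apart.

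PDGFRB had the highest mean level of the 7 genes (ENSOCUG00000001725.3, OryCun2.0 chromosome 3, 31893470 to 31915132). It stood at 180.4, 146, 166 and 141 TPM in tendons 1 to 4, with a mean of 159 ± 18.1 TPM (SD, n = 4). Its highest tendon was 1.28 times its lowest, the narrowest range of the 7. Of the 12786 genes whose mean reached 1 TPM, 93.5% had a lower mean. The biological coefficient of variation of PDGFRB, the spread between animals beyond counting error as estimated by edgeR, was 0.199, near the median of 0.205 over 12740 genes.

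ACTA2 followed at 84.5, 120.2, 122 and 137 TPM, with a mean of 116 ± 22.2 TPM (SD, n = 4; ENSOCUG00000008193.3, chromosome 18, 36853090 to 36871014). Tendon 1 was low and the other 3 lay close together. RGS5, a regulator of G-protein signalling used as a pericyte marker, had 76.3, 87.9, 125 and 109 TPM and a mean of 99.5 ± 21.6 TPM (ENSOCUG00000001169.3, chromosome 13, 29746057 to 29812746). Its lowest value was in tendon 1 and its highest in tendon 3. MYLK had 116, 74.6, 70.6 and 61.4 TPM and a mean of 80.7 ± 24.2 TPM (ENSOCUG00000014935.3, chromosome 14, 95313164 to 95496948). Here tendon 1 was the highest, in contrast to ACTA2 and RGS5.

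MCAM, the adhesion molecule CD146 of mural and endothelial cells, had 38.8, 50.7, 73.3 and 89.3 TPM, with a mean of 63.02 ± 22.6 TPM (SD, n = 4; ENSOCUG00000024055.1, scaffold GL018823, 757834 to 763317). The tendon with the most MCAM had 2.30 times the TPM of that with the least, the widest range of the 7. MYH11 had 26.6, 34.9, 43.7 and 41.3 TPM and a mean of 36.6 ± 7.64 TPM (ENSOCUG00000013450.3, chromosome 6, 11036305 to 11130375). NOTCH3 had the lowest mean, 28.2 ± 7.52 TPM, from 20.8, 23.7, 37.6 and 30.8 TPM (ENSOCUG00000022014.2, scaffold GL018829, 703871 to 728340). For both MYH11 and NOTCH3, tendon 1 was lowest and tendon 3 highest. Even NOTCH3 stood above 61.3% of the genes whose mean reached 1 TPM.

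**Figure D1:**
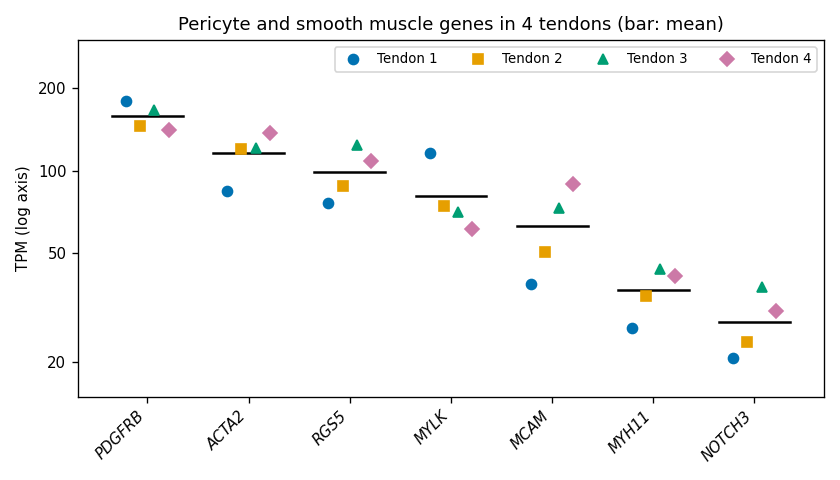
Level in TPM (log axis) of the 7 pericyte and smooth muscle genes; each point is 1 of the 4 tendons, and bars mark the mean. Tendon 1 is the lowest point for ACTA2, RGS5, MCAM, MYH11 and NOTCH3 and the highest for PDGFRB (180.4 TPM) and MYLK (116 TPM).

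In TPM, the order of the genes held at its top and bottom and not in the middle. PDGFRB exceeded ACTA2 in 4 of 4 tendons, although in tendon 4 the values were 141 and 137 TPM. ACTA2 exceeded RGS5 in 3 of 4 tendons, RGS5 exceeded MYLK in 3 of 4, and MYLK exceeded MCAM in 2 of 4. The order of these neighbours thus varied between tendons, and their differences were not tested. MCAM exceeded MYH11, and MYH11 exceeded NOTCH3, in 4 of 4 tendons. Without length correction, MYLK and PDGFRB, with transcripts of 8899 and 5794 bases, gain over RGS5, whose annotated transcript has 923 bases. The order at the bottom turned round in all 4 tendons. MYH11 had 79.6, 115, 145 and 137 CPM, above MCAM at 34.2, 49.3, 71.7 and 87.0 CPM. NOTCH3 was above MYH11, at 94.3, 118, 189 and 154 CPM. The bottom order therefore rests on the annotated lengths.

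The summed TPM of the 7 genes made up 0.0544% of the total in tendon 1, 0.0538% in tendon 2, 0.0638% in tendon 3 and 0.0610% in tendon 4 (mean 0.0583% ± 0.00494; SD, n = 4). The highest of these shares was 1.19 times the lowest. PDGFRB and MYLK, both highest in tendon 1 and put together after their values were seen, summed to 296, 221, 237 and 203 TPM. The other 5 genes, all lowest in tendon 1, summed to 247, 317, 401 and 407 TPM. The contrast of these sums in tendon 1 follows from the grouping. PDGFRB alone spread over 1.28-fold and MYLK over 1.89-fold. The part of the 7-gene sum held by PDGFRB and MYLK was 54.5% in tendon 1 and 33.2% in tendon 4.

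Of the 7 genes, 5 were lowest in tendon 1: ACTA2, RGS5, MCAM, MYH11 and NOTCH3. Among all 8780 genes that passed the minimum of 10 CPM, 22.0% were lowest in tendon 1 in TPM. The same 5 genes were lowest there after scaling by TMM, the trimmed mean normalisation of edgeR, where the share of all genes was 30.0%, and after scaling by DESeq2 size factors. PDGFRB and MYLK were highest in tendon 1, as were 44.2% of all genes in TPM and 34.2% with TMM. On the log2 scale of TPM, centred per gene, tendon 1 deviated by -0.36 (RGS5) to -0.63 (MCAM) among the 5 genes, by 0.19 for PDGFRB and by 0.57 for MYLK. The median deviation over all genes in tendon 1 was 0.08. Scaling by TMM moved all genes of tendon 2 up by 0.12 on the log2 scale, and by 0.14 with DESeq2, which turned the deviation of PDGFRB in tendon 2 from -0.11 to 0.01 and 0.03.

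A range of at least 2-fold between the highest and lowest tendon in TMM-normalised CPM was found for 1 of the 7 genes, MCAM at 2.32-fold, beside 10.2% of 8780 genes. That count rested on the outer tendons: without tendon 1 or without tendon 4 it was 0, while the share of all genes fell to 5.10% and 7.11%, so the count is near the background. At 1.5-fold the count was 6 of 7 genes, all but PDGFRB, beside 28.9% of all genes. MYLK reached 1.88-fold, NOTCH3 1.87-fold, MYH11 1.70-fold, RGS5 1.69-fold and ACTA2 1.63-fold, and the median over the 7 genes was 1.70-fold against 1.33-fold over all genes.

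Endothelial genes, whose cells form the tube that mural cells cover, had 11 of 12 listed symbols in the table. Of these, 10 were lowest in tendon 1 in TPM, beside 22.0% of all genes, ERG being the exception. PECAM1, an endothelial junction molecule, had 61.9, 74.3, 119 and 103 TPM (mean 89.8 ± 26.4; SD, n = 4), and VWF, the von Willebrand factor gene, had 36.8, 50.6, 55.96 and 76.9 TPM. ENG, a TGF-beta co-receptor, was the most abundant of the list at 116 ± 11.8 TPM, and EMCN (endomucin) had 39.5 ± 8.17 TPM. The summed endothelial share was 0.0361%, 0.0418%, 0.0523% and 0.0531% of TPM, the same order of tendons as for the sum of the 5 genes, which were grouped because they were low in tendon 1. Skeletal muscle genes were also least abundant in tendon 1, at 0.716% of TPM against 2.84%, 1.45% and 1.89% in tendons 2 to 4. Of their 10 measured genes, 8 were lowest in tendon 1, beside 22.0% of all genes. Tenocyte and fibroblast genes took the most in tendon 1, 6.03% of TPM against 4.32%, 2.90% and 2.70%. COL1A1, COL1A2 and DCN, at 15218, 15234 and 19666 TPM in tendon 1, weighed most in that sum. In tendon 1, 5 of 9 genes were highest, beside 44.2% of all genes, and 4 of 9 with TMM beside 34.2%. In TPM, 3 of the 9 were highest in tendon 4, LUM, COL3A1 and TNMD, and FMOD was highest in tendon 2. LUM was lowest in tendon 1, at 27.7 TPM against 269 TPM in tendon 4. Adipocyte genes took 0.0246%, 0.03996%, 0.0539% and 0.102% of TPM, the same order of tendons as for the endothelial share. Above 10 CPM, 3 of 3 adipocyte genes were lowest in tendon 1, beside 22.0% of all genes. None of the genes on these 4 lists was at 0 in all tendons, and their part in the levels of the 7 genes was not tested.

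**Figure D2:**
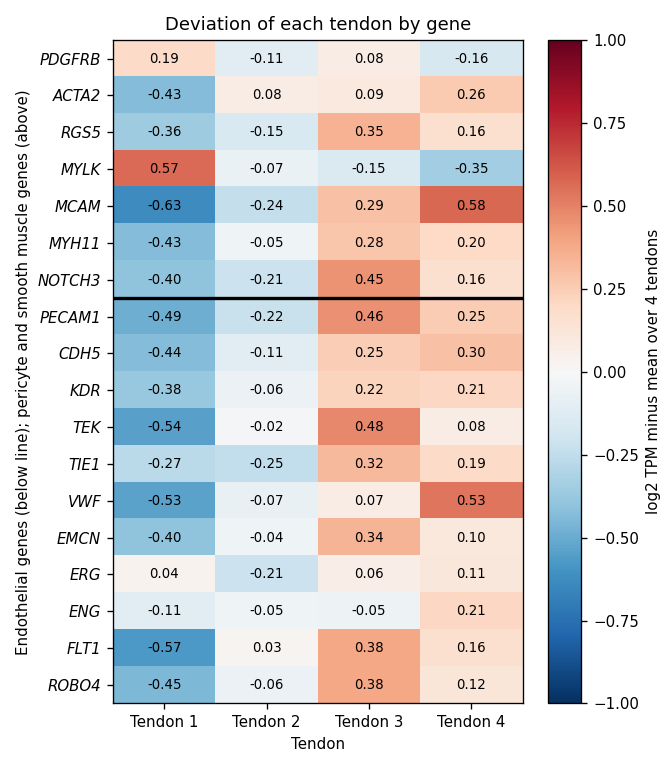
Deviation of log2 TPM from the mean of 4 tendons, by gene (rows) and tendon (columns), for the 7 pericyte and smooth muscle genes above the line and 11 endothelial genes below it. Tendon 1 is negative for ACTA2 (-0.43), RGS5 (-0.36), MCAM (-0.63), MYH11 (-0.43) and NOTCH3 (-0.40) and for 10 endothelial genes, and positive for PDGFRB (0.19), MYLK (0.57) and ERG (0.04).

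The likeness of patterns was measured as the root mean square difference of centred log2 TMM-normalised CPM over the 4 tendons, a description over few points that share a library. For ACTA2, RGS5, MCAM, MYH11 and NOTCH3, the median difference from the 11 endothelial genes ranged from 0.106 (RGS5) to 0.261 (MCAM), below their median differences from 7293 named genes, 0.321 to 0.490. For PDGFRB the order was the opposite, 0.375 from endothelial genes and 0.184 from all named genes. MYLK likewise differed by 0.611 from endothelial genes and by 0.343 from named genes. ACTA2, RGS5, MCAM, MYH11 and NOTCH3 were grouped because they were lowest in tendon 1, as were 10 of the 11 endothelial genes. Their smaller differences from that list, and the larger ones of PDGFRB and MYLK, therefore follow in part from the grouping. Differences from the adipocyte and the tenocyte and fibroblast genes were not measured, so a likeness particular to endothelium was not tested. Differences from the 10 skeletal muscle genes exceeded those from endothelial genes for all 7 genes, with medians of 1.45 (ACTA2) to 1.84 (MYLK). Skeletal muscle genes had a median range of 37.3-fold with TMM, against 1.70-fold for the 7 genes. No gene lay near that median. ACTA1, CKM, MB, TNNC1 and TNNI1 ranged over 3.24-fold (MB) to 5.70-fold (CKM). MYH1, MYH2, TNNC2, TNNT3 and MYLPF, all highest in tendon 4, ranged over 68.9-fold (MYLPF) to 587-fold (TNNC2). The measure grows with the range of a gene, so the larger differences from skeletal muscle genes say little about likeness of pattern.

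Among all named genes, those nearest to PDGFRB were CDK19 (0.0118), CABIN1 (0.0136), NKRF (0.0137), POGK (0.0152) and TNKS2 (0.0168). PDGFRB varied little, and 1075 of 7293 genes lay within 0.1 of it, so this neighbourhood is broad. Between 11 genes (MCAM) and 61 genes (MYLK) lay within 0.1 of each of the other members. The nearest to MYH11 were PDE2A (0.0375), the endothelial VEGF receptor KDR (0.0441) and MRPS36 (0.0531). NOTCH3 was nearest to RASIP1 (0.0184), a gene of endothelial tube formation, then IFIH1 (0.0425) and ZC3HAV1 (0.04499). RGS5 was nearest to the mitochondrial complex I gene ND2 (0.01999), then IFIH1 (0.0310) and SLC27A3 (0.0417). MCAM was nearest to STOM (0.0522), the endothelial protocadherin gene PCDH12 (0.0535) and AFAP1L1 (0.0684). PKDCC (0.0249), MGLL (0.0336) and TINAGL1 (0.0495) were nearest to ACTA2, and MIPOL1 (0.0258), KIF13B (0.0324) and PTAR1 (0.0363) to MYLK. Of all these nearest genes, only KDR was on the endothelial list, and RASIP1 and PCDH12 were not.

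PDGF ligands bind as dimers to the receptor tyrosine kinases PDGFRA and PDGFRB, and PDGF-B and PDGF-D are the principal ligands of PDGFRB. Of 7 ligand and receptor symbols, 6 had an entry, and PDGFRA did not, so the receptors could not be compared. PDGFB had 4.54, 5.47, 6.71 and 6.87 TPM, a mean of 5.90 ± 1.10 TPM (SD, n = 4) from 226 to 575 estimated counts. It was the lowest of the ligands and, like the endothelial genes, lowest in tendon 1. PDGFD was higher and steady, with 81.96, 78.2, 72.5 and 82.8 TPM and a mean of 78.9 ± 4.70 TPM. PDGFA, a ligand of PDGFRA, had 189, 165, 129 and 133 TPM, and PDGFC, whose product is secreted in a latent form, had 22.5, 16.3, 23.01 and 22.02 TPM. PDGFA levels rest on an annotated transcript of only 417 bases and are less exact. PDGFRL, a secreted receptor-like protein gene, had a mean of 222 ± 52.3 TPM. None of the 6 genes had a range of 2-fold, beside 10.2% of all genes.

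**Figure D3:**
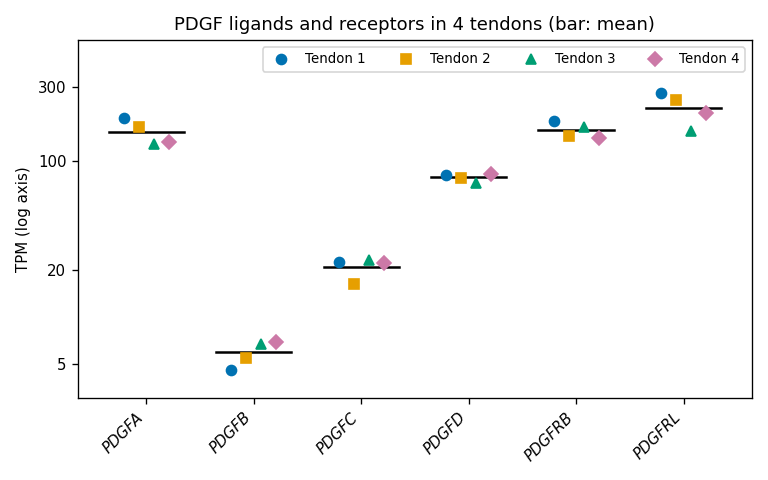
Level in TPM (log axis) of PDGF ligands, PDGFRB and PDGFRL; each point is 1 of the 4 tendons, and bars mark the mean. PDGFB lies between 4.54 and 6.87 TPM and PDGFRB between 141 and 180.4 TPM.

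Genes acting beside or below the PDGF receptors were present throughout. Of 15 listed genes 14 had an entry, all 14 with a mean above 1 TPM, and 0 of the 14 had a range of 2-fold, beside 10.2% of all genes. LRP1, a co-receptor that becomes phosphorylated in response to PDGF, had 602, 331, 419 and 324 TPM. The transcription factor gene STAT3 had 157 ± 22.5 TPM (SD, n = 4), the phosphoinositide 3-kinase regulatory subunit PIK3R1 had 128 ± 29.3 TPM, and the adaptor SHC1 had 84.2 ± 8.45 TPM. Tendon 1 was the highest for 10 of the 14 genes, LRP1, STAT3 and PIK3R1 among them, against 44.2% of all genes.

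Other pericyte markers were less abundant than PDGFRB. Of 16 symbols 13 had an entry, and 11 had a mean of at least 1 TPM. TBX18, a mural transcription factor gene, had 74.4, 50.5, 67.8 and 64.01 TPM, and the proteoglycan NG2 gene CSPG4 had 65.9, 58.2, 76.3 and 50.1 TPM. TBX18 was lowest in tendon 2 and CSPG4 in tendon 4. Of the 7 genes of this list that passed 10 CPM, 2 were lowest in tendon 1 in TPM, CD248 and EDNRA. The share over all genes was 22.0%. With TMM, 4 of the 7 were lowest there, beside 30.0% of all genes. CD248 (endosialin), expressed by pericytes and fibroblasts, had 24.1, 25.4, 51.1 and 48.8 TPM. HEYL, a Notch target of mural cells, had 18.2 ± 4.97 TPM (SD, n = 4). A range of at least 2-fold was found for 3 of these 7 genes, beside 10.2% of all genes: CD248 at 2.20-fold, the potassium channel gene KCNJ8 at 2.48-fold and the endothelin receptor gene EDNRA at 3.05-fold. FOXF2, at a mean of 0.394 TPM, and VTN, with 0 to 14 estimated counts, stood below 1 TPM.

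Smooth muscle contractile genes other than the 7 had 14 of 19 symbols in the table, and the most abundant of them are not specific to smooth muscle. TPM2 and TPM1 (tropomyosins) had means of 3911 ± 2049 and 878 ± 322 TPM (SD, n = 4), DES (desmin) 859 ± 460.4 TPM and MYL6, a light chain of smooth muscle and nonmuscle myosin, 2177 ± 226 TPM. Skeletal muscle also expresses TPM1, TPM2 and DES, and these 3 were lowest in tendon 1 and spread over 2.24- to 4.51-fold, while MYL6 was lowest in tendon 3. LMOD1 (leiomodin 1), a more restricted smooth muscle gene chosen after its values were seen, had 4.84, 7.14, 5.11 and 5.30 TPM. In all, 6 of 13 genes of this list had a range of at least 2-fold, beside 10.2% of all genes.

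Of 6 actin symbols 4 had an entry, and ACTB and ACTG1 did not. Among the 4 measured actins, ACTA2 was a small part. ACTA1, skeletal muscle actin, had 2925, 13182, 6218 and 7864 TPM, cardiac actin ACTC1 had 76.4, 326, 249 and 887 TPM, and ACTG2, the enteric smooth muscle actin, had 16.2, 14.3, 16.2 and 18.9 TPM. ACTA2 did not follow the order of ACTA1, which was highest in tendon 2. Actin coding sequences are similar, so reads could be split between these genes and their levels are uncertain. The estimated counts of ACTA2 were whole numbers in 4 of 4 tendons, within 1e-06 of a count, as were those of the other members except MYH11. Those of ACTA1 and ACTC1 were whole in 3 of 4 tendons, and those of ACTG2 in 0 of 4. MYH11 had no whole count in any tendon, as arises when reads are divided between transcripts, and its level is uncertain to that extent. The nonmuscle myosin heavy chain gene MYH9 stood at 236 ± 32.2 TPM, against 36.6 TPM for MYH11.

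The regulators of smooth muscle genes differed widely in level. SRF, the serum response factor that binds contractile gene promoters, had 38.95, 48.6, 48.7 and 45.9 TPM, whereas its smooth muscle partner MYOCD (myocardin) lay between 0.466 and 0.996 TPM (mean 0.736 ± 0.228; SD, n = 4), from 26.03 to 42.1 estimated counts. MYOCD was the 1 gene of 9 below 1 TPM. CSRP1, a LIM domain cofactor, had 154 ± 28.3 TPM (SD, n = 4) and was lowest in tendon 1. KLF4, a repressor of the contractile programme, had 112, 72.6, 166 and 62.8 TPM, and CSRP2 had 56.2 ± 20.5 TPM. KLF4 and CSRP2, with 2.72-fold and 2.05-fold, were the 2 of 8 genes above 10 CPM with a range of at least 2-fold, beside 10.2% of all genes.

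Genes of myosin phosphorylation were listed beside MYLK. The nonmuscle light chain MYL12B had 737 ± 94.4 TPM (SD, n = 4), and the myosin phosphatase catalytic subunit PPP1CB had 97.5 ± 6.21 TPM. MYLK was above its relatives in all 4 tendons: the skeletal muscle kinase MYLK2 had 8.02, 17.9, 7.84 and 11.4 TPM, MYLK4 had 10.1, 11.7, 7.61 and 21.3 TPM, and the cardiac kinase MYLK3 had 2.38 ± 0.708 TPM. MYLK2 and MYLK4, with 2.54-fold and 2.72-fold, were the 2 of 10 genes of this list with a range of at least 2-fold, beside 10.2% of all genes.

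Of the Notch receptors, NOTCH3 and NOTCH4 had an entry, and NOTCH1 and NOTCH2 did not. NOTCH4, an endothelial receptor, had 2.73, 2.18, 4.24 and 5.72 TPM, below NOTCH3 in all 4 tendons. The ligand gene JAG1, chosen after its values were seen, had 11.4, 11.1, 18.1 and 17.4 TPM. RBPJ, the DNA-binding partner of the cleaved receptor, had 92.2, 62.1, 64.5 and 55.2 TPM, and the coactivators MAML1 and MAML2 had 18.99 ± 3.23 and 19.8 ± 4.40 TPM (SD, n = 4). HES1, a target gene of Notch and other pathways, had 138, 59.4, 54.7 and 35.4 TPM and was highest in tendon 1. The Notch target genes HEYL, with 15.9, 17.03, 14.5 and 25.5 TPM, and HEY1, chosen after its values were seen, with 3.51, 3.16, 2.91 and 7.87 TPM, were highest in tendon 4. NOTCH4 and HES1 had ranges of 2.32-fold and 3.86-fold, the 2 of 7 genes that reached 2-fold, beside 10.2% of all genes.

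RGS5 was matched in level by RGS3, at 96.9, 131, 79.3 and 90.4 TPM, a mean of 99.3 ± 22.2 TPM (SD, n = 4). RGS10 had 44.6 ± 7.50 TPM, RGS4 had 39.5 ± 10.4 TPM and RGS14 had 6.69 ± 4.66 TPM. RGS3 was highest in tendon 2 and lowest in tendon 3, while RGS5 was highest in tendon 3. RGS4, also found in smooth muscle, shared the low tendon 1 with RGS5. At 2.23-fold it was the 1 of 3 other RGS genes above 10 CPM with a range of at least 2-fold, beside 10.2% of all genes.

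Levels within a tendon were compared as ratios of TPM, for 6 of 9 chosen pairs in which both genes had an entry. PDGFRB was 2.92, 1.97, 1.39 and 1.37 times PECAM1 in tendons 1 to 4 (mean log2 ratio 0.86 ± 0.51; SD, n = 4). RGS5 was 0.423, 0.601, 0.749 and 0.772 times PDGFRB, so this ratio of pericyte genes spread over 1.82-fold. MYH11 stayed close to 0.3 of ACTA2, at 0.315, 0.290, 0.359 and 0.301 times, a spread of 1.24-fold. MYH11 was 0.430, 0.469, 0.366 and 0.399 times PECAM1, and MCAM was 0.627, 0.683, 0.614 and 0.862 times PECAM1. ACTA2 was 0.00912 (tendon 2) to 0.0289 (tendon 1) times ACTA1. The ratio of MYLK to MYH11, added after the values were seen, was 4.36, 2.14, 1.62 and 1.49, a spread of 2.93-fold.

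All 6 ratios lay on one side of 1 in 4 of 4 tendons. In the exact two-sided sign-flip permutation test each had p = 0.13 (Benjamini-Hochberg adjusted over 6 ratios, 0.13), the smallest p that 4 tendons allow, so none could reach 0.05. Without length correction the ratio of MYH11 to PECAM1 was 1.09, 1.19, 0.929 and 1.01, on both sides of 1.

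**Figure D4:**
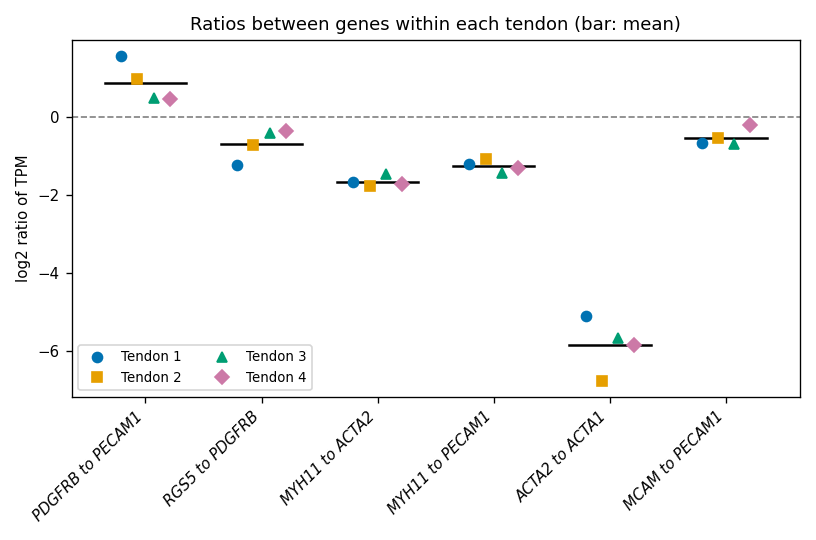
log2 ratio of TPM between genes within a tendon; each point is 1 of the 4 tendons, bars mark the mean, and the dashed line marks equal TPM. The ratio of MYH11 to ACTA2 stays between 0.290 and 0.359, and that of PDGFRB to PECAM1 runs from 1.37 to 2.92.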

How the data were processed

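The authors deposited estimated counts for each transcript, unscaled, in 1 column per tendon. The submitters' processing notes name build OryCun2.0, kallisto 0.42.4, bcl2fastq and FastQC, without roles; strand use and filters are not given in the sources used here. Symbols, coordinates and transcript lengths stand beside the counts, per the file headers. Genes were found by symbol, and 7069 of 20294 genes had none.

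TPM were computed from annotated lengths and summed per gene. Counts summed per gene were rounded and scaled by TMM factors (edgeR 4.0.16 under R 4.3.3; genes with 1 CPM in at least 2 tendons) and by DESeq2 1.42.0 size factors. Spread was estimated in edgeR with an intercept alone, and the range count used genes averaging 10 CPM or more; both ran on 4 tendons, and the range count was tested on simulated data. Ratios were tested by exact sign-flip permutation. Python 3.11.15, numpy 2.4.6 and pandas 2.3.3 did the rest.

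The members and gene lists were chosen with earlier results of these data known. Named were all members, ratio genes and PDGF genes, up to 4 genes per other list by mean TPM, the 5 genes nearest to PDGFRB and 3 nearest to each other member, and genes behind counts of 5 or fewer; genes of the cell type lists beyond those a result turns on are not printed, and some others of the rule are not reported here. Alternatives were other lengths, totals, scalings, filters and folds, and each tendon left out. Tendons came from separate animals, and no pair agreed within counting noise.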

Additional observations from a re-analysis of the deposited data

Results flagged for a closer look

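TPM levels, shares of TPM and ratios, 112 values in all, were examined for 1 tendon that stood apart; 2 passed Dixon's 95% critical value for 4 samples, where chance gives about 5.6. PDGFC, a PDGF ligand gene, stood apart in tendon 2 at 16.3 TPM, against 22.5, 23.01 and 22.02 TPM in tendons 1, 3 and 4 (Dixon's ratio 0.853). Scaling by TMM moved all genes of tendon 2 up by 0.12 on the log2 scale. In TMM-normalised CPM, PDGFC had 68.0, 56.0, 72.1 and 67.1, and Dixon's ratio was not examined on that scale. S100B, a Schwann cell and adipocyte gene, stood apart in tendon 4 at 33.8 TPM, against 7.39, 6.67 and 10.5 TPM in tendons 1 to 3 (Dixon's ratio 0.858). Its levels rest on 22, 34, 48 and 169 estimated counts over an annotated transcript of 298 bases. Its mean was below the minimum of 10 CPM, so they are less exact. None of the 7 pericyte and smooth muscle genes, their summed share or their 6 ratios passed.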

How the results depend on the processing

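With each transcript shortened by an assumed fragment of 200 bases, PDGFRB had a mean of 122 TPM, the median of the 7 members' means was 61.6 TPM (80.7 as reported) and their share was 0.0475%; MYH11 had 28.2 TPM. With mitochondrially encoded genes left out of the total, these were 179 TPM, 90.8 TPM and 0.0658%. The share was 0.140% of CPM. Leaving out each tendon in turn, PDGFRB ran from 151 to 164 TPM, the median of means from 71.1 (without tendon 1) to 87.1 TPM, the share from 0.0564% to 0.0597%, and the count of members with a 2-fold range from 0 to 1 (5.10% to 8.78% of all genes). That count was 2 with library totals (11.0% of all genes) and 6 at 1.5-fold (28.9%). In CPM, the mean log2 ratio of MYH11 to PECAM1 turned from -1.27 to 0.074 (exact permutation test, p = 0.375). The other 5 ratios kept their direction under every alternative run. No paired analysis was possible because the 4 tendons form 1 group. Depth did not limit the members, which had at least 675 estimated counts. Transcript lengths limit comparisons between genes.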
